A study of Mus musculus with 18 samples.

Results

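Epicardial, cushion and fibroblast lineage genes were followed in mouse heart ventricles at E14.5 across genotypes of Irx3 and Irx4, which encode Iroquois homeobox transcription factors. The genes were a given list of 36 names, and all 36 matched a gene among the 28537 genes of the series and passed the filter on low counts. For this report they were grouped by role. The groups were 13 epicardial genes, 6 transcription factors of the endocardial cushions and mesenchyme, and 17 fibroblast and matrix genes. PolyA RNA was sequenced in 18 libraries: 3 wild type (WT), 3 Irx3 knockout (Irx3KO), 3 Irx4 knockout (Irx4KO), 3 heterozygous for both genes (Irx3het_Irx4het, here dHet) and 6 knockout for both genes (Irx3KO_Irx4KO, here DKO). The strain, the deleted part of each gene and any pooling of embryos were not given in the sources used here. Nothing in the labels says that libraries came from separate embryos, so p-values measure the spread between libraries, which may be technical.

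Comparisons were made inside 2 sets of libraries, which have no name in the labels. WT was compared with DKO 5, 7 and 10 (set 1). The remaining 12 libraries, which include DKO 2, 3 and 4, were compared with each other (set 2). Totals ran from 26721576 to 45946741 estimated counts. Irx3 was at 2.58 to 4.33 CPM (counts scaled to a common library size with TMM factors) in the libraries labelled Irx3KO or DKO, at 12.8 to 13.3 CPM in dHet and at 22.1 to 28.5 CPM in WT. Irx4 was at 218 to 282 CPM in DKO of set 1 and at 78.8 to 126 CPM in WT. In set 2 it was at 216 to 239 CPM in Irx4KO and 221 to 237 CPM in DKO. There it was at 176 to 191 CPM in dHet and 135 to 158 CPM in Irx3KO. Its count goes against the labels Irx4KO and DKO as a measure of loss, and directions below refer to the labels. Cardiomyocyte Tnnt2 lay between 3345 and 5689 CPM.

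The epicardium is the mesothelial sheet that covers the heart. Some of its cells undergo an epithelial-to-mesenchymal transition, enter the wall and form fibroblasts and mural cells. The endocardial cushions form from endocardium in a similar transition and give rise to valves and septa. In bulk ventricles, fewer cells of a type and less RNA per cell cannot be told apart.

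Promoter windows are shown for Krt8 and Mab21l2, the members past the threshold in a comparison of genotypes, and for Krt18, the keratin that pairs with Krt8. They run from 250 bases before to 50 bases after the RefSeq gene start in GRCm38.p6, which is not the build of the submitters' notes (mm9). The windows are Mab21l2 at chr3:86548234-86548533, minus strand, Krt8 at chr15:102004293-102004592, minus strand, and Krt18 at chr15:102027966-102028265, plus strand. They are written 5′ to 3′ on the gene's strand, and capitals mark the TATA-box letters TATAAA found on either strand.
Mab21l2: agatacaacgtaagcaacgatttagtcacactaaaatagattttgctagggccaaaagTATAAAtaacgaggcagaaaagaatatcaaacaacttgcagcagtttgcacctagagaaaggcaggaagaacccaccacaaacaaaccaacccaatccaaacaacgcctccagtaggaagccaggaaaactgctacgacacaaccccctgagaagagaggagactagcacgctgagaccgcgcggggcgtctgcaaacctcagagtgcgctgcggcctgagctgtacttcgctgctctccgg
Krt8: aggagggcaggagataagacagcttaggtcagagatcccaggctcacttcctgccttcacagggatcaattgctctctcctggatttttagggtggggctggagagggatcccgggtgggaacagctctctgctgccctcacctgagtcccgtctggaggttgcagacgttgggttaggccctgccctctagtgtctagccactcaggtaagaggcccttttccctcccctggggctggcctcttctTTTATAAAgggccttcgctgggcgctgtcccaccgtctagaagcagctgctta
Krt18: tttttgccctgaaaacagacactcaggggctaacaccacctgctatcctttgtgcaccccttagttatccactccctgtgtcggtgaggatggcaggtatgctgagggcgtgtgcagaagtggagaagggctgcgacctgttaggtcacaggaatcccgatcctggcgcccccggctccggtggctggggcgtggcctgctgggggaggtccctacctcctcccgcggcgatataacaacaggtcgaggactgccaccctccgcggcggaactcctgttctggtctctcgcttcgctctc
TATAAA was in the Mab21l2 window from position 59, counted from 1 at the 5′ end, and in the Krt8 window at positions 248 and 250, where matches on opposite strands overlap. It was not in the Krt18 window. Among all 32851 windows of this length, 13.6% held it on either strand. Windows were given for 23 of the 36 members, and 9 of these members had it (Aspn, Col3a1, Dpt, Krt8, Mab21l2, Ogn, Postn, Tnc and Twist1). The letters ACANNTGT, a palindrome that contains the E-box letters CANNTG, were in 7.38% of all windows and in those of Col3a1 and Bnc2. A match describes letters only.

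Per transcript length (deposited TPM summed per gene), matrix genes were the most abundant members in WT. Col3a1, a fibrillar collagen, was at 402 ± 89.1 TPM (SD, n = 3), Postn, the matricellular protein periostin, at 381 ± 32.1 TPM, and Gpc3, a cell-surface glypican, at 359 ± 21.4 TPM. Neighbours in this order overlapped over the WT libraries except at 5 steps. These were between Gpc3 and Col1a2, between Lum (97.1 TPM) and Tcf21 (43.5 TPM), between Krt8 (4.94 TPM) and Penk, between Bnc1 and Muc16, and between Mab21l2 (1.66 TPM) and Bnc2 (0.466 TPM). Wt1 ranged over 14.5 to 16.0 TPM, Sox9 over 11.2 to 12.8 TPM and Scx over 6.94 to 11.0 TPM. Bnc2 had 10 to 37 counts per library.

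**Figure D1:**
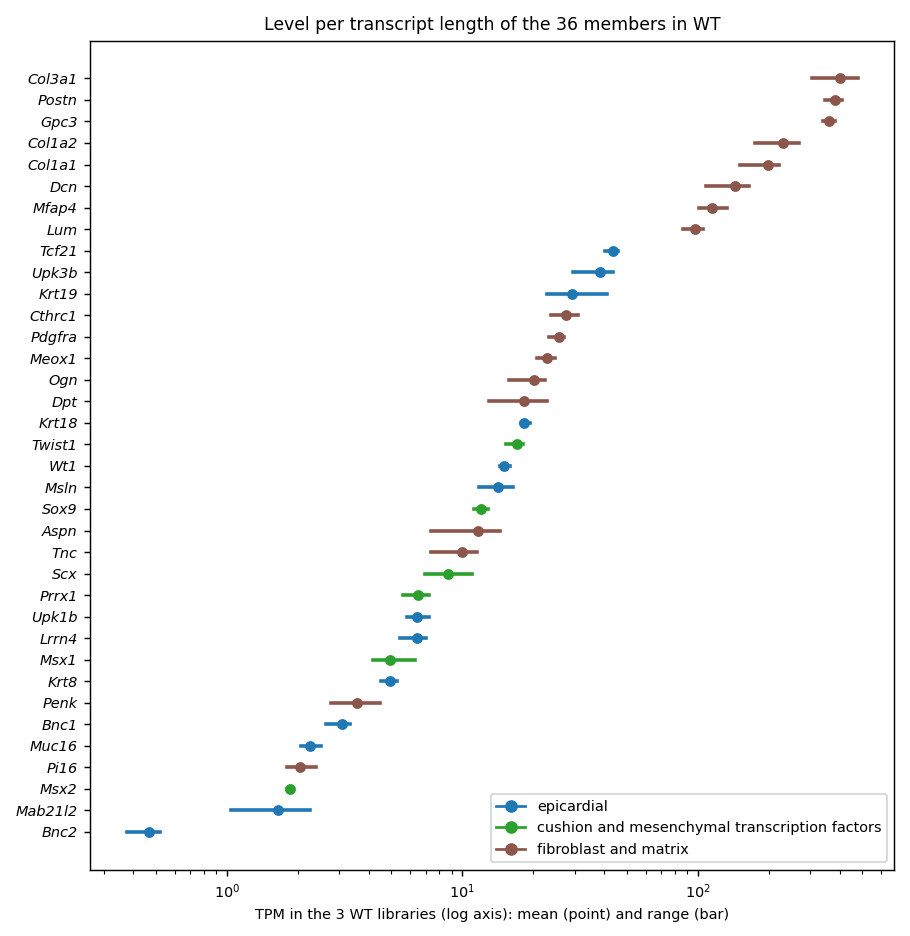
Level per transcript length of the 36 members in WT, in TPM on a log axis, with the mean and the range over 3 libraries. Fibroblast and matrix genes fill the top 8 places, from Col3a1 at 402 TPM to Lum at 97.1 TPM, and Bnc2 is lowest at 0.466 TPM.

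Among the epicardial genes Krt8, an epithelial keratin of the mesothelium, rose in DKO against WT. It was at 5.63, 6.35 and 5.89 CPM in WT 1, 2 and 3 and at 13.2, 13.1 and 9.75 CPM in DKO 5, 7 and 10. All 3 DKO libraries were above all 3 WT libraries. The increase was 2.02-fold (log2 fold change 1.01 ± 0.195 SE, 95% confidence interval 0.60 to 1.42, edgeR adjusted p = 0.0153). Krt8 was the 1 of 36 members past the threshold (adjusted p under 0.05 over all genes), where 1.44% of all 16600 genes tested passed.

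In set 2, Krt8 was at 6.59, 6.43 and 10.8 CPM in DKO 2, 3 and 4 and at 5.33, 5.97 and 6.37 CPM in Irx4KO. It was at 4.49, 4.34 and 6.25 CPM in dHet and at 5.51, 4.25 and 5.26 CPM in Irx3KO. The lowest DKO library (6.43 CPM) was just above the highest library of the other genotypes (6.37 CPM, Irx4KO), and the other genotypes overlapped. The share of all genes separated in this way was not counted. DKO was 1.59-fold above dHet and 1.59-fold above Irx3KO, with edgeR adjusted p of 0.235 and 0.222. Leaving out 1 library put the log2 difference from dHet between 0.380 and 0.847 and that from Irx3KO between 0.378 and 0.798. In set 1 the adjusted p was 0.0737 without WT 1, 0.0547 without WT 3, 0.0764 with set 1 libraries alone in the fit and 0.163 with all DKO libraries as 1 group. An exon of Krt8 overlaps Gm36026 on the opposite strand, so reads of the pair may be shared.

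Markers of atrial muscle moved in the same libraries. Of 5 atrial genes, Myl7, Myl4 and Stard10 rose in DKO against WT (edgeR adjusted p of 0.00915, 0.0158 and 0.00397). Their list summed to 2477 to 3286 CPM in WT and 3762 to 4268 CPM in DKO of set 1. In set 2 the sum was 3000 to 3153 CPM in DKO, 2423 to 2650 CPM in Irx4KO and 1951 to 2634 CPM in dHet and Irx3KO. The atrial genes Myl7, Myl4 and Nppa were also abundant in WT ventricles, with means of 345, 1396 and 1087 CPM. Whether the amount of atrial tissue or the level of these genes in ventricular muscle differed was not tested. The part of either in the Krt8 result was not tested. A list of 6 epithelium and liver genes summed to 0.445 to 2.08 CPM over the 18 libraries, with Epcam between 0.211 and 0.507 CPM.

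Mab21l2, a Mab21 family gene needed for eye development, rose in the libraries labelled homozygous for Irx4 loss. It was at 1.65, 2.85 and 2.88 CPM in dHet 2, 3 and 4 and at 2.36, 1.71 and 1.74 CPM in Irx3KO 1, 2 and 4. It was at 5.08, 4.74 and 5.09 CPM in Irx4KO 2, 3 and 4 and at 4.86, 7.80 and 8.13 CPM in DKO 2, 3 and 4. All 6 Irx4KO and DKO libraries were above the other 6. The increase was 2.69-fold (log2 fold change 1.43 ± 0.268 SE, 95% confidence interval 0.86 to 2.00, edgeR adjusted p = 0.0196). Mab21l2 was the 1 of 36 members past the threshold here, where 0.813% of all genes passed. Without Irx3KO 2, Irx3KO 4, Irx4KO 2 or Irx4KO 4 the adjusted p was 0.0648, 0.0678, 0.0507 and 0.0501. The atrial gene Stard10 also rose in this comparison (adjusted p = 0.0196), and its part was not tested.

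Between single genotypes of set 2, Mab21l2 was not past the threshold. Its log2 difference was 1.83 for DKO against Irx3KO (edgeR adjusted p = 0.0524) and 1.02 for Irx4KO against dHet (adjusted p = 0.748). DKO was 2.83-fold above dHet (adjusted p = 0.16). With set 2 libraries alone in the fit, both DKO comparisons passed it, with adjusted p of 0.00335 against Irx3KO and 0.0136 against dHet. DKO and Irx4KO differed by 0.48 (95% confidence interval -0.29 to 1.25).

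In set 1, Mab21l2 was at 2.03, 3.14 and 4.17 CPM in WT and at 12.7, 3.60 and 9.12 CPM in DKO 5, 7 and 10. DKO 7 lay inside the WT range. The difference of 1.44 ± 0.369 had an adjusted p of 0.0676, and without DKO 7 it was 1.81 with an adjusted p of 0.00566. An exon of Mab21l2 overlaps Lrba on the opposite strand, and whether counting used strand was not stated. Lrba was at 27.7 to 31.3 CPM in Irx4KO and DKO of set 2 and at 28.3 to 33.7 CPM in dHet and Irx3KO, which overlap.

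**Figure D2:**
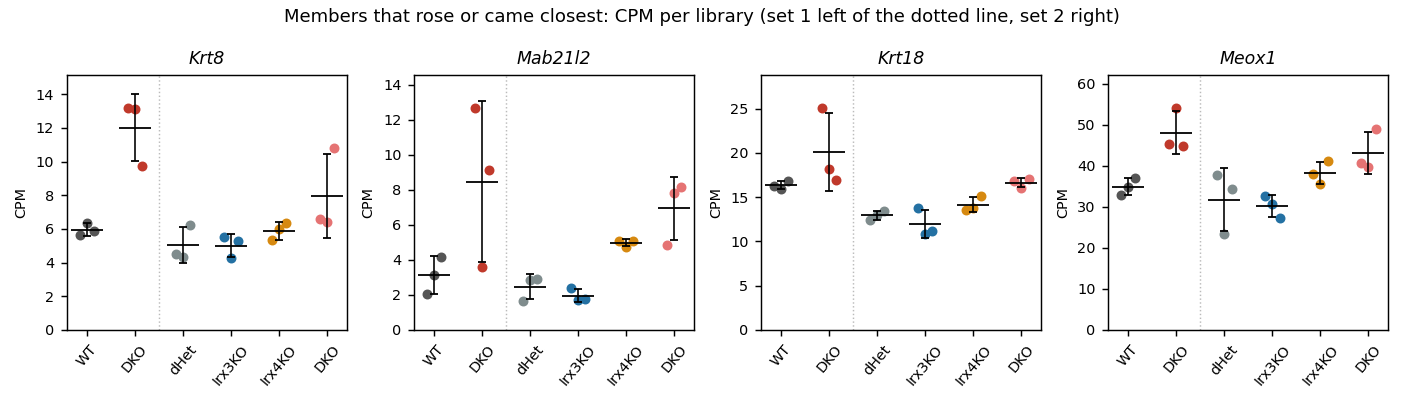
CPM per library of Krt8, Mab21l2, Krt18 and Meox1 by group in both sets, with points for libraries and marks for the group mean and SD (n = 3). Krt8 is separated in set 1 (WT up to 6.35 CPM, DKO from 9.75 CPM), and Mab21l2 in set 2 (dHet and Irx3KO up to 2.88 CPM, Irx4KO and DKO from 4.74 CPM).

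Krt18 was at 16.3, 16.0 and 16.9 CPM in WT and at 25.1, 18.2 and 16.9 CPM in DKO 5, 7 and 10. DKO 5 was the high library, and DKO 10 was just above WT 3. The log2 difference was 0.30 ± 0.123 (edgeR adjusted p = 0.282) in set 1 and 0.30 (adjusted p = 0.144) between homozygous Irx4 libraries and the rest in set 2. Krt19, another keratin of simple epithelia, differed by 0.17 in set 1.

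Wt1, the Wilms tumour transcription factor of the epicardium, was at 20.5, 20.7 and 21.6 CPM in WT and at 24.1, 26.3 and 26.7 CPM in DKO of set 1. The groups did not overlap, but the log2 difference of 0.30 (95% confidence interval 0.06 to 0.53) was not past the threshold (edgeR adjusted p = 0.24). In set 2, Wt1 was at 18.6, 17.9 and 18.9 CPM in dHet, 21.7, 21.9 and 20.4 CPM in Irx3KO, 17.0, 21.5 and 17.6 CPM in Irx4KO and 20.4, 27.2 and 18.9 CPM in DKO. There dHet lay below Irx3KO and DKO, and the other pairs of groups overlapped. Homozygous Irx4 libraries differed from the rest by 0.04 (-0.13 to 0.21). Tcf21, a factor of epicardium and fibroblast progenitors, differed by 0.16 in set 1 (adjusted p = 0.517).

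Upk3b, a uroplakin of mesothelial surfaces, was at 49.2, 68.5 and 69.1 CPM in WT and at 73.2, 52.0 and 54.3 CPM in DKO of set 1. It was at 50.8, 40.4 and 43.3 CPM in dHet, 48.4, 49.9 and 38.5 CPM in Irx3KO, 52.6, 57.3 and 45.3 CPM in Irx4KO and 40.7, 45.0 and 66.1 CPM in DKO of set 2. Every pair of groups overlapped within its set. The log2 difference was -0.06 (-0.46 to 0.35) in set 1 and 0.18 (-0.11 to 0.47) for homozygous Irx4 libraries in set 2.

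The remaining epicardial genes were past the threshold in neither comparison. Msln, the surface protein mesothelin, differed by 0.49 in set 1 (edgeR adjusted p = 0.375), with DKO 5 at 42.1 CPM and DKO 7 and 10 at 23.9 and 20.3 CPM. The uroplakin Upk1b, the zinc-finger genes Bnc1 and Bnc2, the mucin Muc16 and Lrrn4 ranged from -0.30 (Lrrn4) to 0.42 (Bnc2, interval -0.47 to 1.31).

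Sox9, a factor of cushion mesenchyme and cartilage, was at 34.5, 35.7 and 37.4 CPM in WT and at 42.4, 39.6 and 45.6 CPM in DKO of set 1. The groups did not overlap, and the log2 difference was 0.25 (-0.01 to 0.50, edgeR adjusted p = 0.39). In set 2 it was at 39.5, 25.3 and 34.3 CPM in dHet, 29.9, 31.1 and 29.0 CPM in Irx3KO, 36.6, 36.9 and 42.2 CPM in Irx4KO and 36.8, 35.0 and 44.3 CPM in DKO. Irx3KO lay below every Irx4KO and DKO library, and dHet overlapped them. The difference of homozygous Irx4 libraries from the rest was 0.30 (0.11 to 0.48, adjusted p = 0.152).

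Scx, scleraxis of tendon and valve progenitors, was at 5.85, 4.82 and 7.42 CPM in WT and at 8.29, 5.56 and 6.35 CPM in DKO of set 1. In set 2 it was at 5.88, 2.58 and 5.44 CPM in dHet, 4.90, 4.36 and 4.27 CPM in Irx3KO, 4.88, 5.55 and 5.18 CPM in Irx4KO and 5.32, 6.24 and 4.81 CPM in DKO. All pairs of groups overlapped, and dHet 3 was the low library. The log2 difference was 0.16 (-0.34 to 0.66) in set 1 and 0.22 (-0.14 to 0.58) for homozygous Irx4 libraries.

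Msx2, a homeobox factor of cushion mesenchyme, was at 3.32, 3.06 and 3.10 CPM in WT and 5.16, 4.60 and 5.25 CPM in DKO of set 1. The groups did not overlap, but the log2 difference of 0.66 ± 0.258 had an edgeR adjusted p of 0.249. Its relative Msx1 differed by -0.27, the helix-loop-helix factor Twist1 by 0.24 and the homeobox factor Prrx1 by -0.06, none past the threshold.

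Pdgfra, the PDGF receptor of fibroblast progenitors, was at 117, 131 and 125 CPM in WT and at 129, 112 and 156 CPM in DKO of set 1. In set 2 it was at 143, 110.0 and 144 CPM in dHet, 137, 144 and 120.1 CPM in Irx3KO, 145, 137 and 137 CPM in Irx4KO and 130.3, 141 and 154 CPM in DKO. All pairs of groups overlapped within a set. The log2 difference was 0.09 (-0.15 to 0.34) in set 1 and 0.08 (-0.09 to 0.25) for homozygous Irx4 libraries.

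Dpt, the matrix protein dermatopontin, was at 21.1, 13.9 and 24.0 CPM in WT and at 25.0, 24.7 and 20.6 CPM in DKO of set 1. In set 2 it was at 17.7, 22.8 and 16.0 CPM in dHet, 17.6, 16.9 and 24.1 CPM in Irx3KO, 23.8, 34.5 and 26.9 CPM in Irx4KO and 19.7, 29.8 and 13.5 CPM in DKO. Irx4KO lay above dHet, and the other pairs overlapped. The log2 difference was 0.25 (-0.31 to 0.82) in set 1 and 0.35 (-0.05 to 0.75) for homozygous Irx4 libraries, with edgeR adjusted p of 0.738 and 0.574.

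Meox1, a homeobox factor of mesoderm and activated fibroblasts, was at 32.8, 35.0 and 37.0 CPM in WT and 45.4, 54.2 and 44.8 CPM in DKO of set 1. The groups did not overlap (0.46 ± 0.139, edgeR adjusted p = 0.124). In set 2 its difference was 0.39 ± 0.0990 for homozygous Irx4 libraries (adjusted p = 0.0856). Postn was at 651 to 786 CPM in dHet and Irx3KO and at 797 to 924 CPM in Irx4KO and DKO of set 2, without overlap (0.24 ± 0.0683, adjusted p = 0.129). Pi16, a marker of adventitial fibroblasts, differed by 0.52 in set 1 (adjusted p = 0.187), and Penk, which encodes proenkephalin, by -0.70 (adjusted p = 0.375).

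Among collagen genes in set 1, Col1a2 differed by -0.33 ± 0.141 (edgeR adjusted p = 0.298), Col3a1 by -0.35 ± 0.159 (adjusted p = 0.336) and Col1a1 by 0.04. None was past the threshold, although Col1a2 was when WT 2 was left out. The small proteoglycans Lum, Dcn, Ogn and Aspn differed by -0.01, 0.06, -0.34 and -0.11. Tenascin C (Tnc) differed by 0.30, the microfibril protein Mfap4 by -0.11, the secreted protein Cthrc1 by 0.11 and Gpc3 by -0.06.

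**Figure D3:**
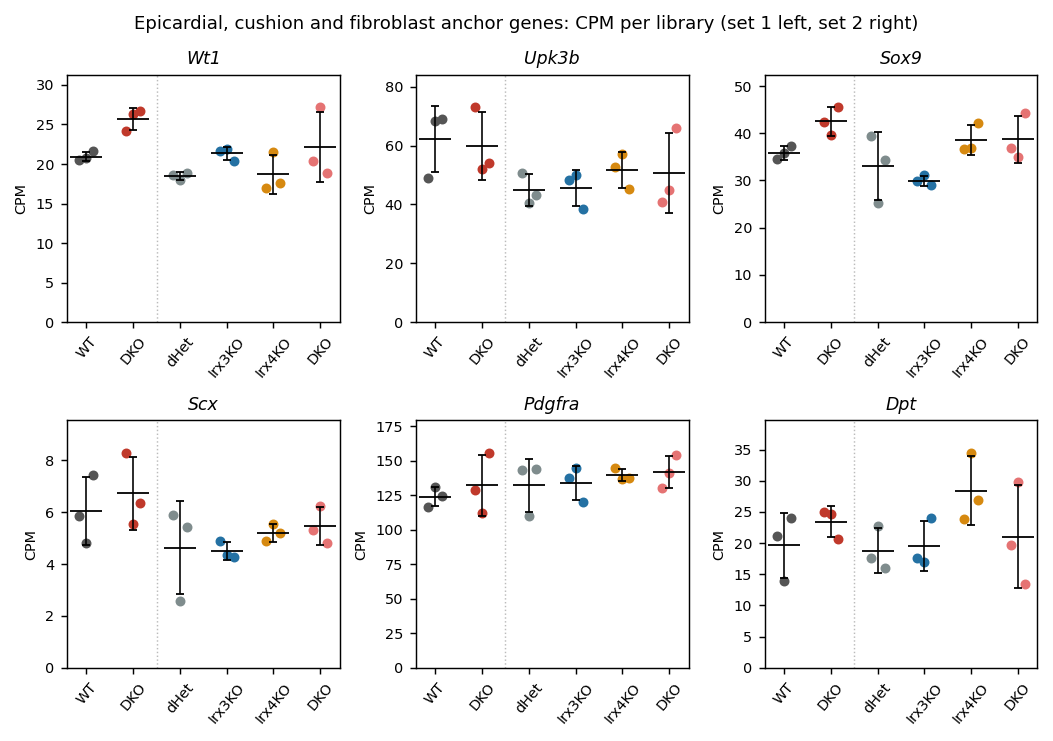
CPM per library of Wt1 and Upk3b (epicardial), Sox9 and Scx (cushion) and Pdgfra and Dpt (fibroblast) by group in both sets, with points for libraries and marks for the group mean and SD (n = 3). Wt1 and Sox9 do not overlap between WT and DKO of set 1, and dHet 3 is the low library of Sox9 (25.3 CPM) and Scx (2.58 CPM).

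Counted by role in DKO against WT, 1 of 13 epicardial genes, 0 of 6 cushion genes and 0 of 17 fibroblast genes passed the threshold in edgeR, and 4, 1 and 4 had an unadjusted p under 0.05. That is 25.0% of members, beside 13.8% of all genes. The members were chosen with earlier results of these data known and are not independent of each other. The counts and medians here describe the list and are no test of a shift. Of the 36 members DESeq2 called 3 and limma-voom 1, beside 3.58% and 0.934% of all genes. The median log2 difference was 0.294 for the epicardial, 0.198 for the cushion and 0.041 for the fibroblast genes, beside 0.009 for all genes. Without WT 2 the fibroblast median was -0.083, of opposite sign, and without DKO 5 the epicardial median was 0.161. Every DKO library was above every WT library for 8 of 36 members (Krt8, Krt18, Wt1, Tcf21, Sox9, Msx2, Meox1 and Pi16), beside 7.98% of all genes, and below for 0, beside 7.04%.

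In homozygous Irx4 libraries of set 2, 1 of 13 epicardial genes, 0 of 6 cushion genes and 0 of 17 fibroblast genes passed the threshold in edgeR, and 3, 2 and 6 had an unadjusted p under 0.05. The epicardial gene past it was Mab21l2, whose place among the epicardial genes was assigned for this report and was not tested. That is 30.6% of members, beside 10.7% of all genes. DESeq2 called 3 of 36 members and limma-voom 5, beside 2.08% and 2.63% of all genes. The medians were 0.113, 0.245 and 0.194, beside 0.004 for all genes, and 32 of 36 members had a positive difference, beside 51.6% of all genes. Genes of a role moved together in some libraries, such as dHet 3, and the members were chosen with earlier results known. These shares and medians describe the list and are no test of a shift across a lineage. Without dHet 3 the cushion median was 0.123, and 33 of 36 members were positive. Groups did not overlap for 2 members upward (Mab21l2 and Postn), beside 0.867% of all genes, and for 0 downward, beside 1.01%.

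Comparisons between single genotypes of set 2 gave 0 members past the threshold in edgeR. Below, each count of members is out of 36, and the percentage beside it is a share of all genes. A count and its percentage are therefore not on the same scale. DKO against dHet (edgeR 0.0904% of all genes) had 10 members at an unadjusted p under 0.05 (all genes 9.81%), 4 called by DESeq2 (1.11%) and 0 by limma-voom (0.175%). DKO against Irx3KO (edgeR 0.38% of all genes) had 9 members at an unadjusted p under 0.05 (all genes 7.91%), 3 called by DESeq2 (1.21%) and 3 by limma-voom (1.52%). In both, Mab21l2 was among the members called by DESeq2. DKO against Irx4KO (edgeR 0.0241% of all genes) had 6 members at an unadjusted p under 0.05 (all genes 5.78%), 0 called by DESeq2 (0.157%) and 0 by limma-voom (0.102%). Irx3KO against dHet (edgeR 0.00602% of all genes) had 1 member at an unadjusted p under 0.05 (all genes 4.39%), 0 called by DESeq2 (0.0723%) and 0 by limma-voom (0.012%). Irx4KO against dHet (edgeR 0.012% of all genes) had 8 members at an unadjusted p under 0.05 (all genes 5.61%), 0 called by DESeq2 (0.193%) and 0 by limma-voom (0.0241%). Irx3KO against Irx4KO (edgeR 0.289% of all genes) had 9 members at an unadjusted p under 0.05 (all genes 8.62%), 1 called by DESeq2 (1.3%) and 4 by limma-voom (4.45%). The test of any difference among these genotypes (edgeR 0.307% of all genes) had 11 members at an unadjusted p under 0.05 (all genes 8.4%), 2 called by DESeq2 (1.88%) and 0 by limma-voom (0.699%). Libraries with against those without homozygous Irx3 loss (edgeR 0.0241% of all genes) had 5 members at an unadjusted p under 0.05 (all genes 7.4%), 0 called by DESeq2 (0.337%) and 0 by limma-voom (0.127%).

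WT and the single knockouts share no set and were joined by way of DKO of both sets. For Irx3KO (0.0181% of all genes passed), Irx4KO (0.0422%) and the interaction of Irx3 and Irx4 (0.0%), 0 members were past the threshold by edgeR, DESeq2 or limma-voom. At an unadjusted p under 0.05 there were 1, 2 and 1 of 36 members, beside 4.68%, 6.29% and 3.39% of all genes. DESeq2 called 0.0964%, 0.542% and 0.0663% of all genes and limma-voom 0.00602%, 0.114% and 0.0181%. DKO against WT in set 1 shares no library with the comparisons of set 2, which share DKO 2, 3 and 4 with each other. The members with the same sign as in set 1 were 66.7% for DKO against Irx3KO, 58.3% against dHet and 66.7% against Irx4KO, beside 62.0%, 60.3% and 59.2% of all genes. For homozygous Irx4 libraries they were 63.9%, beside 59.6%. The share of members was above that of all genes except against dHet, where it was below, and these differences were not tested.

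**Figure D4:**
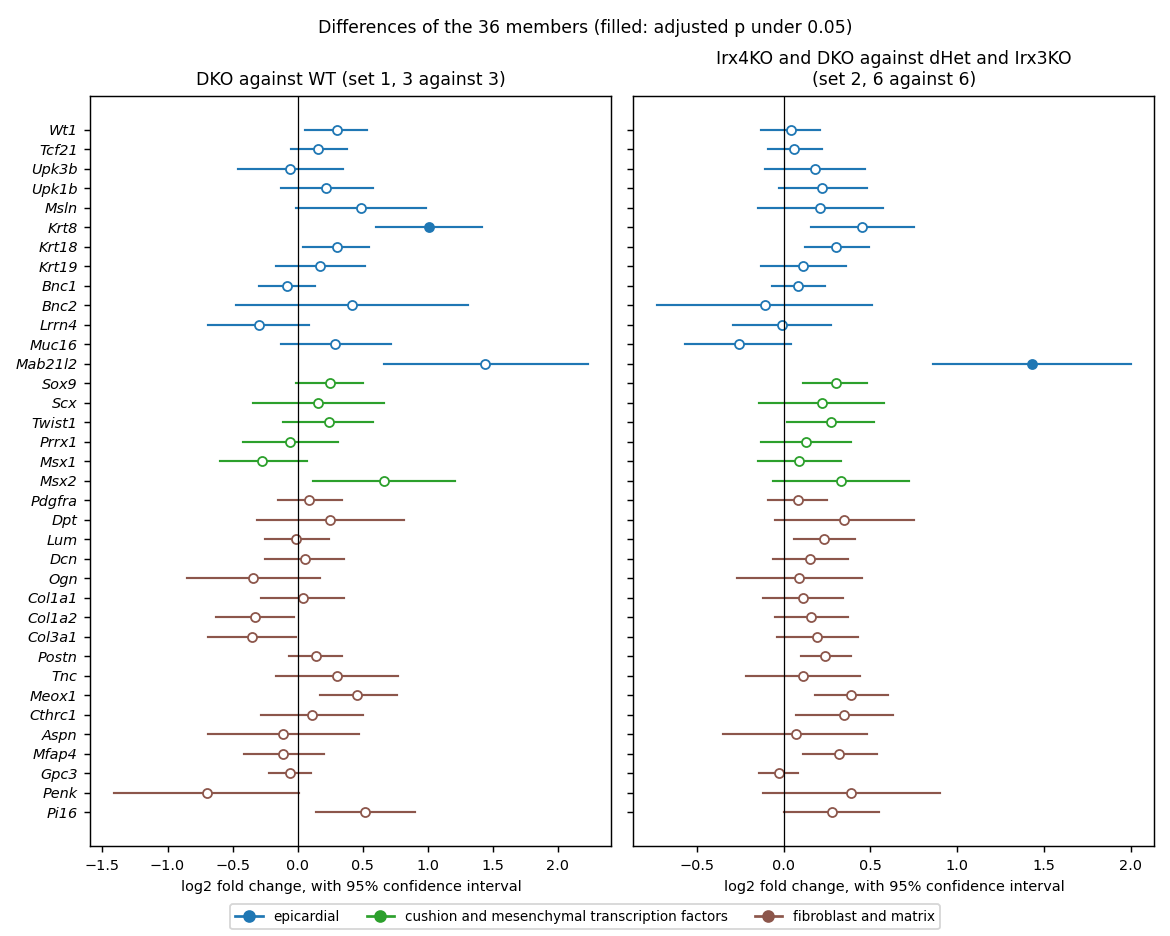
Log2 fold changes of the 36 members with 95% confidence intervals, for DKO against WT in set 1 and for Irx4KO with DKO against dHet with Irx3KO in set 2; filled points have an adjusted p under 0.05. Krt8 is filled in the first (1.01) and Mab21l2 in the second (1.43).

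Members also differed between the sets at the same genotype. In DKO of set 1 against DKO of set 2, 18.8% of all genes and 4 of 36 members were past the threshold. Col1a2 was at 603, 717 and 776 CPM in DKO 5, 7 and 10 and at 1134, 1170 and 950.2 CPM in DKO 2, 3 and 4. It was lower in every set 1 library (-0.64 log2, edgeR adjusted p = 0.0059). Col3a1 was also lower (-0.58, adjusted p = 0.0205), while Krt8 (0.60, adjusted p = 0.0394) and Msln (0.96, adjusted p = 0.0118) were higher. Without DKO 5 only Col1a2 of these was past the threshold, and Col3a1 and Krt8 were also lost without DKO 2 or DKO 3. Over the 6 fits that each left out 1 library, Col1a2 was called in 6, Msln in 4, Col3a1 in 3 and Krt8 in 2. Limma-voom called 0 of the 36, beside 9.33% of all genes, with 10 members at an unadjusted p under 0.05 in edgeR, beside 32.2%. DESeq2 called 4 members, beside 22.9% of all genes. The rank correlation of each library's deviation with transcript length was -0.417 to -0.223 in set 1 and 0.0285 to 0.343 in set 2. With this trend removed, the adjusted p of Krt8 in DKO against WT was 0.0139 and that of Mab21l2 in homozygous Irx4 libraries 0.0179.

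Some libraries stood apart inside their group. In dHet 3, 6 of 6 cushion genes and 13 of 17 fibroblast genes were below their group mean, with Msx2 at 1.41 CPM beside 3.50 and 3.36 CPM. In WT 2, 12 of 17 fibroblast genes were below it, with Col1a1 at 603 CPM beside 911 and 882 CPM. The macrophage gene C1qa was at 14.3 CPM in WT 2 beside 6.40 and 6.94 CPM. In DKO 5 the epicardial genes summed to 291 CPM beside 232 and 239.5 CPM, and 12 of 17 fibroblast genes were below the group mean. In DKO 4, 9 of 13 epicardial genes were above the group mean and 4 below. Of the 17 fibroblast genes, 7 were above it and 10 below. Dpt, Dcn, Ogn and Aspn were lowest there of the 3 DKO libraries of set 2, but Penk was highest. Upk3b and Krt8 were highest there, but Wt1 and Krt19 were lowest. The part of macrophage RNA in the WT 2 levels was not tested.

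**Figure D5:**
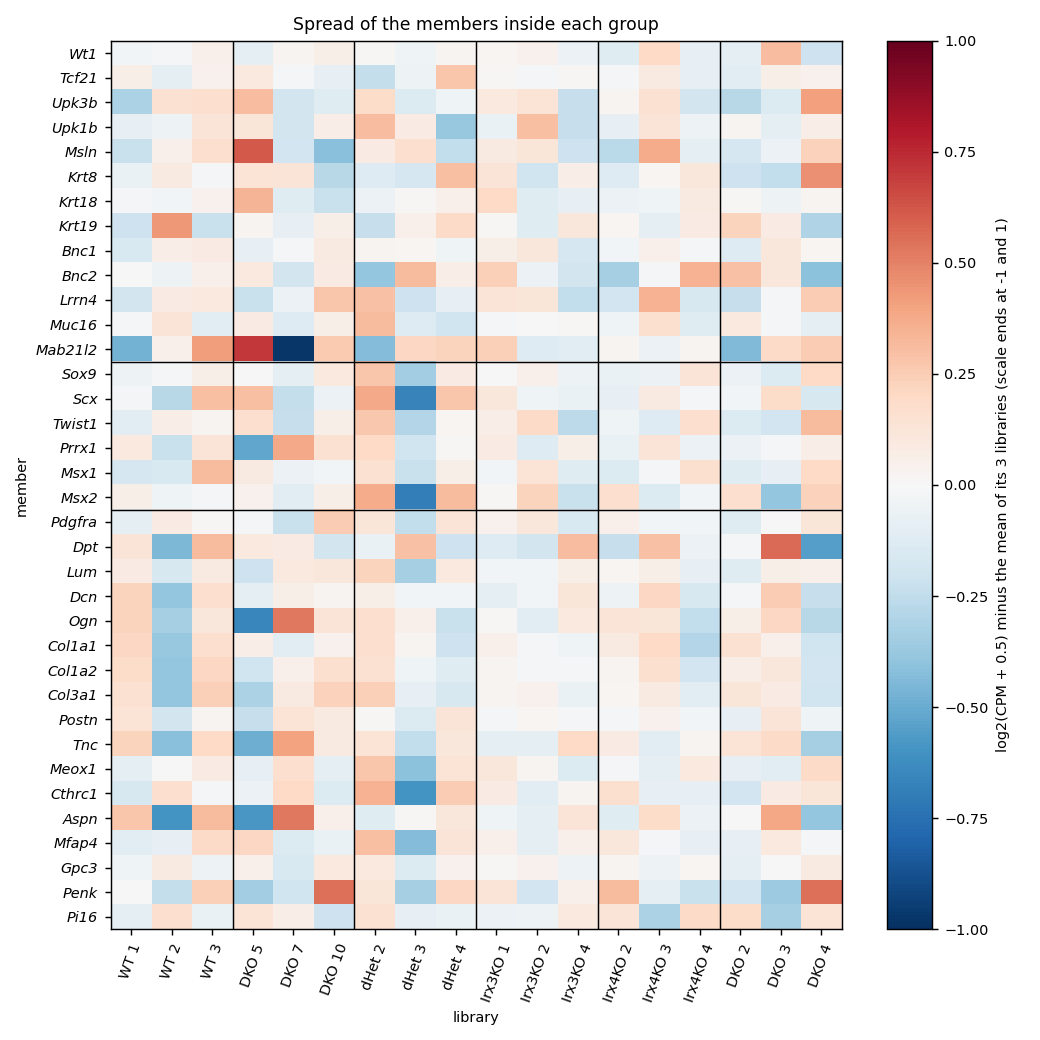
Deviation of each member in each library from the mean of the 3 libraries of its group, as log2(CPM + 0.5), by role. All 6 cushion genes are below the group mean in dHet 3, and the collagen genes are below it in WT 2.

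Of 12 other epicardial genes, 11 were tested and 1 fell in DKO against WT. Pdpn, the podoplanin of mesothelium and lymphatic endothelium, was at 16.8, 17.6 and 15.4 CPM in WT and 12.6, 12.1 and 9.96 CPM in DKO of set 1. All DKO libraries were below WT (-0.52 ± 0.116, edgeR adjusted p = 0.0293). The call was lost when WT 1, WT 2, WT 3, DKO 7 or DKO 10 was left out (adjusted p of 0.0511 to 0.116) and with set 1 libraries alone (0.242). Of the 11, 3 had a positive and 8 a negative difference, with a median of -0.052, where the epicardial members had 10 positive and 3 negative. Among the positive ones, Tbx18 was at 59.5 to 67.5 CPM in WT and 69.6 to 77.2 CPM in DKO of set 1. Its difference of 0.19 was not past the threshold (edgeR unadjusted p = 0.00364, adjusted p = 0.116). Of 12 other cushion and valve genes, 18 other fibroblast genes and 12 PDGF and TGF-beta signal genes, 0 were past the threshold in edgeR, and 0, 3 and 4 had an unadjusted p under 0.05. Of all genes, 1.44% were past the threshold in DKO against WT and 13.8% had an unadjusted p under 0.05. In homozygous Irx4 libraries these lists and the epicardial one had 0 past the threshold, with 4, 4, 2 and 3 genes at an unadjusted p under 0.05. The shares of all genes were 0.813% and 10.7%. In that comparison 5 of the 11 epicardial genes had a positive difference, with a median of -0.02, and all 12 cushion and valve genes did, with a median of 0.216. The share of all genes with a positive difference is given above, and these tallies were not tested. Genes of these lists also differed between DKO of the sets. Lower in set 1 were Ddr2, a collagen receptor (-0.73, adjusted p = 0.00087), Col6a3 (-1.08, adjusted p = 0.00303), the valve factor Tbx20 (-0.85, adjusted p = 0.00464) and the ligand Tgfb2 (-0.68, adjusted p = 0.0135). Pdgfa, a PDGF ligand, was higher in set 1 (0.32, adjusted p = 0.014).

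The Wt1 counts were divided among transcripts unevenly between libraries. Its transcript of 3090 bases held 24.2% to 27.0% of them in Irx3KO, 0.503% to 2.14% in dHet, 0.146% to 33.3% in Irx4KO and 1.37% to 25.9% in DKO of set 2. In set 1 it held 0.575% to 9.44% in WT and 0.00845% to 18.7% in DKO. Kallisto divides reads among similar transcripts, and these shares were not tested. Krt8, Mab21l2, Sox9, Scx, Upk3b and Dpt each had 1 transcript in the tables.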

How the data were processed

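PolyA RNA of E14.5 ventricles was sequenced in 18 libraries of 5 genotypes, grouped by the sample titles. The authors deposited, per the file headers, kallisto tables of estimated counts and TPM per transcript. Kallisto 0.42.2 and mm9 come from the submitters' processing notes, and the transcript release and strand setting were not given in the sources used here. Of 88943 transcripts, 78002 (87.7%) were matched to genes by identifier in GENCODE M21. Unmatched transcripts held 6.43% to 6.78% of counts. Estimated counts were summed per gene and rounded.

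One edgeR 4.0.16 fit (R 4.3.3) of all 18 libraries used genotype by set cells, TMM factors, filterByExpr (16600 genes, common dispersion 0.0207), the robust quasi-likelihood F test and Benjamini-Hochberg adjustment over all genes at a threshold of 0.05. Fold changes were fitted with prior count 0.125, and the SE is the log2 fold change divided by the square root of F. The fit was run on counts simulated with the dispersions of these libraries and with planted changes. Those counts held no set effect or length trend, so they do not show whether the fit suits these data. The sets are not named by the labels. Deposited TPM was summed per gene for levels per length only. With 3 libraries a group, intervals are wide.

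The members and lists were chosen with earlier results of these data known. All members are named, and those past the threshold in a comparison of genotypes and Wt1, Upk3b, Sox9, Scx, Pdgfra and Dpt are given in every library, with up to 4 genes per other list past the threshold. Alternatives were RLE factors, DESeq2 1.42.0, limma-voom 3.58.1 with quality weights, other filters, counts rebuilt from TPM, genotype as the only term, fewer libraries in the fit, the transcript-length trend removed, a Y-linked covariate, a replicate block and leaving out each library. Leaving out WT 2, DKO 5, dHet 3 and DKO 4 for the medians was added after the data were seen. Tbx18 was also named after they were seen. No 2 libraries agreed within sampling noise (smallest chi-square per gene 6.31).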

Additional observations from a re-analysis of the deposited data

Results flagged for a closer look

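Among the 6 DKO libraries, which span both sets, 4 members had 1 library far from the other 5 by the gap to its neighbour over the range. Krt18 was at 25.1 CPM in DKO 5 and between 16.1 and 18.2 CPM in the others. Prrx1 was at 15.9 CPM in DKO 5 and between 25.6 and 30.1 CPM in the others. Krt19 was at 19.8 CPM in DKO 4 beside 25.8 to 28.8 CPM. Msx2 was at 2.93 CPM in DKO 3 beside 4.56 to 5.25 CPM. For 6 values from 1 population, chance gives such a gap in about 1 of 20 groups, and 36 members were looked at. The DKO libraries come from both sets, so this rate need not hold here.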

How the results depend on the processing

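Counts of members past the threshold, out of 36, follow, each with the percentage of all genes past it in brackets. With genotype as the only term, DKO of both sets formed 1 group, so those counts mix genotype with set. The edgeR fit gave 1 (1.44%) for DKO against WT, 0 (0.0904%) for DKO against dHet, 0 (0.38%) for DKO against Irx3KO, 0 (0.289%) for Irx3KO against Irx4KO, 0 (0.307%) for any difference in set 2, 1 (0.813%) for homozygous Irx4 libraries, 4 (18.8%) for DKO between sets and 0 (0.0%) for the interaction. DESeq2 gave 3 (3.58%) for DKO against WT, 4 (1.11%) for DKO against dHet, 3 (1.21%) for DKO against Irx3KO, 1 (1.3%) for Irx3KO against Irx4KO, 2 (1.88%) for any difference in set 2 and 3 (2.08%) for homozygous Irx4 libraries. Limma-voom gave 3 (1.52%) for DKO against Irx3KO, 4 (4.45%) for Irx3KO against Irx4KO, 5 (2.63%) for homozygous Irx4 libraries and 0 (9.33%) for DKO between sets. Genotype as the only term gave 0 (0.633%) for DKO against WT, 7 (1.91%) for DKO against dHet, 4 (1.71%) for DKO against Irx3KO, 6 (1.72%) for any difference in set 2, 2 (1.04%) for homozygous Irx4 libraries and 6 (14.8%) for the interaction, the last near the share of all genes. Set libraries alone gave 0 (0.102%) for DKO against WT, 1 (1.06%) for DKO against dHet, 2 (1.1%) for DKO against Irx3KO, 1 (0.89%) for Irx3KO against Irx4KO, 1 (1.24%) for any difference in set 2 and 3 (2.14%) for homozygous Irx4 libraries. Compared groups alone gave 0 (0.102%) for DKO against WT, 1 (0.685%) for DKO against Irx3KO, 7 (3.41%) for Irx3KO against Irx4KO and 1 (1.91%) for DKO between sets. A filter of 1 CPM in 3 libraries gave 1 (0.51%) for DKO against Irx3KO, and removing the length trend 1 (0.428%) for DKO against Irx3KO and 2 (8.7%) for DKO between sets. A Y-linked covariate gave 2 (1.09%) for DKO against WT and 2 (0.825%) for homozygous Irx4 libraries. The replicate block, with set 2 libraries alone, gave 1 (0.209%) for DKO against dHet, 2 (0.233%) for DKO against Irx3KO, 1 (0.258%) for any difference in set 2 and 2 (0.712%) for homozygous Irx4 libraries, but the numbers did not pair the libraries, since over 15 same-number pairs the correlation of deviations was -0.189 to 0.0822 and 2 of 12 libraries were closest to their own number. Leaving out 1 library gave 0 (without WT 1 or WT 3) to 2 (without WT 2 or DKO 7) for DKO against WT. It gave 0 (without Irx3KO 2, Irx3KO 4, Irx4KO 2 or Irx4KO 4) to 3 (without dHet 2) for homozygous Irx4 libraries, and 1 (without DKO 5; 2 without DKO 2 or DKO 3) to 5 (without DKO 10) for DKO between sets. Where a call was lost or gained, the cause was not tested. Of 373 alternative values of single genes, 309 kept direction and call, 20 gained a call, 37 lost one and 7 changed direction. All 7 were Krt8 in Irx3KO against dHet, which was at 0.0023 (log2) and never past the threshold: -0.0005 with the 1 CPM filter, -0.0113 without the length trend, -0.1369 with the replicate block, and -0.0725, -0.0922, -0.0726 and -0.0337 without dHet 2, dHet 3, Irx3KO 1 and Irx3KO 4. Leaving out 1 library put it between -0.0922 and 0.1813. The members with the fewest counts in a library were Bnc2 (10 to 37), Muc16 (33 to 83) and Penk (34 to 115).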
